A study of Mus musculus with 4 samples.

Results

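The genes described here are those whose signal differed at least 2-fold between IL-4-stimulated bone marrow-derived macrophages (BMDMs) that were treated with Torin1 and those that were not. Of 21823 named genes on the array, 13471 were well above background on both arrays, and 3308 of these met the rule. There were 1505 genes higher after Torin1, which is 11.2% of the genes measured on both arrays, and 1803 genes lower, which is 13.4%. Bone marrow cells of wild-type C57BL/6J mice aged 10 weeks were grown for 6 days in L929 supernatant, a source of M-CSF, and then stimulated for 2 days with IL-4 at 50 ng per ml, alone (M2) or together with 250 nM of Torin1. Another array held Lamtor1-deficient BMDMs given IL-4 alone, labelled p18 (2400001E08Rik) -/-, from mice of the same strain and age. According to the study's methods these mice carried floxed Lamtor1 alleles and LysM-Cre, which acts in cells of the myeloid lineage. The M1 array held wild-type BMDMs given LPS (100 ng per ml) with IFN-γ (20 ng per ml). The labels name no vehicle for the M2 array, and each condition was hybridized to 1 array only, so that no difference has a replicate check and no p-value is given.

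The kinase mTOR works in 2 complexes, mTORC1 and mTORC2, and Torin1 competes with ATP in the active site of both. At the lysosome, mTORC1 is switched on by amino acids through the Ragulator, of which Lamtor1 is the membrane anchor, and it promotes translation, lipid and nucleotide synthesis while holding back autophagy. In macrophages, IL-4 acts through STAT6 to induce the alternatively activated or M2 set of genes, such as the mannose receptor.

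A gene was read through 1 probe, the brightest of those well above background on both arrays, and its log2 ratio was taken after each array had been divided by its 75th percentile. The signals quoted below are the deposited processed signals before that step, which adds 0.34 to the log2 ratio of Torin1 over M2. The technical SD of such a ratio, from probes spotted repeatedly on the array, was 0.093. This error lies within arrays and leaves out the variation between cultures, and the ratios cannot tell fewer cells of a type from less RNA per cell. The choice of scaling mattered for the balance of directions. A shift of each array to its median lowered the median log2 ratio of all genes by 0.25, and the share of higher genes among those changed was then 28.6% in place of 45.5%. Dim signals depended on the background correction. With normexp, a model-based correction that raises low signals, 602 of the 3308 changed genes moved by over 1.5 times. Of these, 58 were chosen by the rule for naming genes, and the ratio of all 58 was closer to 0. Where a gene described below moved this much, its ratio with normexp is given. Under each of 4 scalings, 1000 genes were 2-fold or more higher and 1591 were 2-fold or more lower.

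The middle of the distribution lay at a log2 ratio of 0.00, with quartiles at −0.54 and 0.52. Large falls outnumbered large rises. At 8-fold or more there were 233 lower and 111 higher genes, and at 64-fold or more 19 lower and 6 higher. Another 623 genes were well above background on the M2 array only, and 926 on the Torin1 array only. For these genes the ratio is a bound against the dimmest signal called well above background, and this bound reached 2-fold for 373 and 288 genes, respectively. Of the 623, 13 had no usable spot on the Torin1 array, and 1 of the 926 had none on the M2 array. At the edges of the rule, Rad51d on the higher and Slc66a2 on the lower side lay just inside it, whereas Rpl27a and Smyd1 (log2 ratio −0.9995) fell just short of it.

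**Figure D1:**
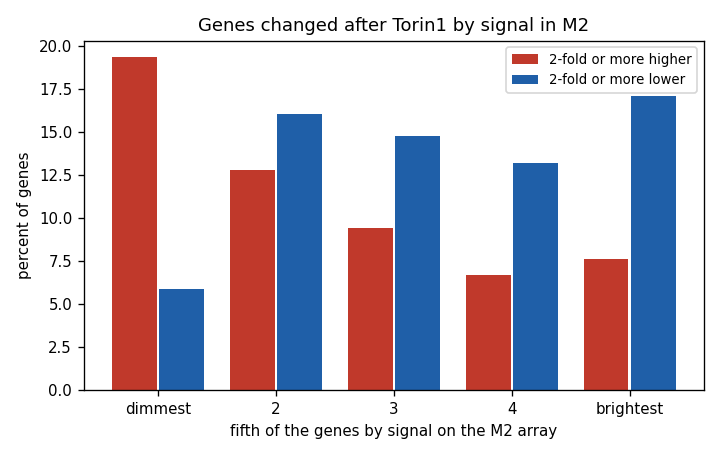
Percent of genes 2-fold or more higher (red) or lower (blue) after Torin1, in 5 equal bins of the 13471 genes ordered by their signal on the M2 array. In the dimmest bin 19.3% were higher and 5.90% lower, and in the brightest 7.61% were higher and 17.1% lower.

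The shares of higher and lower genes turned with the level of a gene in M2 BMDMs, as the plot of changed genes by signal shows. The M2 array both orders the genes and is the denominator of the ratio, and genes that fell out of detection are missing from the dimmest bin. The GC content of the probes did not separate the classes, with a median of 41.7% for higher, lower and unchanged genes alike.

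Genes that IL-4 induces in macrophages formed the list with the second lowest median of the 40 pathway lists. Of 41 listed genes 35 were measured on both arrays, of which 23 were 2-fold or more lower and 0 higher, and the median log2 ratio was −2.15. Retnla, which encodes the secreted protein RELMα, was the brightest gene to lose detection. Its signal was 399700 in M2 BMDMs and 13.0 under Torin1, below detection, so that it was at least 20055-fold lower. In Lamtor1-deficient BMDMs Retnla had a signal of 79886, a log2 ratio of −2.17.

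The eosinophil-associated ribonucleases were among the brightest genes of M2 BMDMs and fell together. Rnase2a went from 219152 to 886 (log2 ratio −7.61), Ear2 from 202375 to 2010 (−6.31), Ear1 from 69670 to 657 (−6.39) and Ear10, which is not in the list, from 103942 to 618 (−7.05). These genes are close copies of each other, so that a probe may read more than 1 of them. Outside the list, Il4i1, an amino acid oxidase secreted by myeloid cells, had a log2 ratio of −7.69, with signals of 111714 and 429.

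Among receptors and chemokines of the M2 state, the eosinophil attractant Ccl24 had a log2 ratio of −6.84 after Torin1 and −1.99 after Lamtor1 loss. The lectin Clec10a had −6.61 and −2.42, respectively, and the mannose receptor Mrc1 had −2.64 and −1.42. Ocstamp and Dcstamp, which encode membrane proteins of macrophage fusion, had −5.99 and −4.33 after Torin1. The IL-4 receptor chain Il4ra (−1.74, with −0.96 by another probe), the transcription factor Irf4 (−1.65) and the cytokine-signalling suppressors Socs1 (−2.15) and Cish (−1.16) were lower too. Il10 had signals of 81.0 and 10.3, was above background on the M2 array only and was at least 4.06-fold lower. With normexp, the ratio of Ccl24 was −5.90.

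Not every M2 gene was lower. Chil3, the chitinase-like protein Ym1, had signals of 290106 in M2 and 266312 after Torin1, a log2 ratio of 0.22. In M1 BMDMs its signal was 28.6. Chil4 had a ratio of 0.65, the transglutaminase Tgm2 0.68, the nuclear receptor Pparg 0.51 and the transcription factor Egr2 −0.11. When arrays were shifted to their medians, every ratio was lower by 0.25, which brought Chil3 close to 0.

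**Figure D2:**
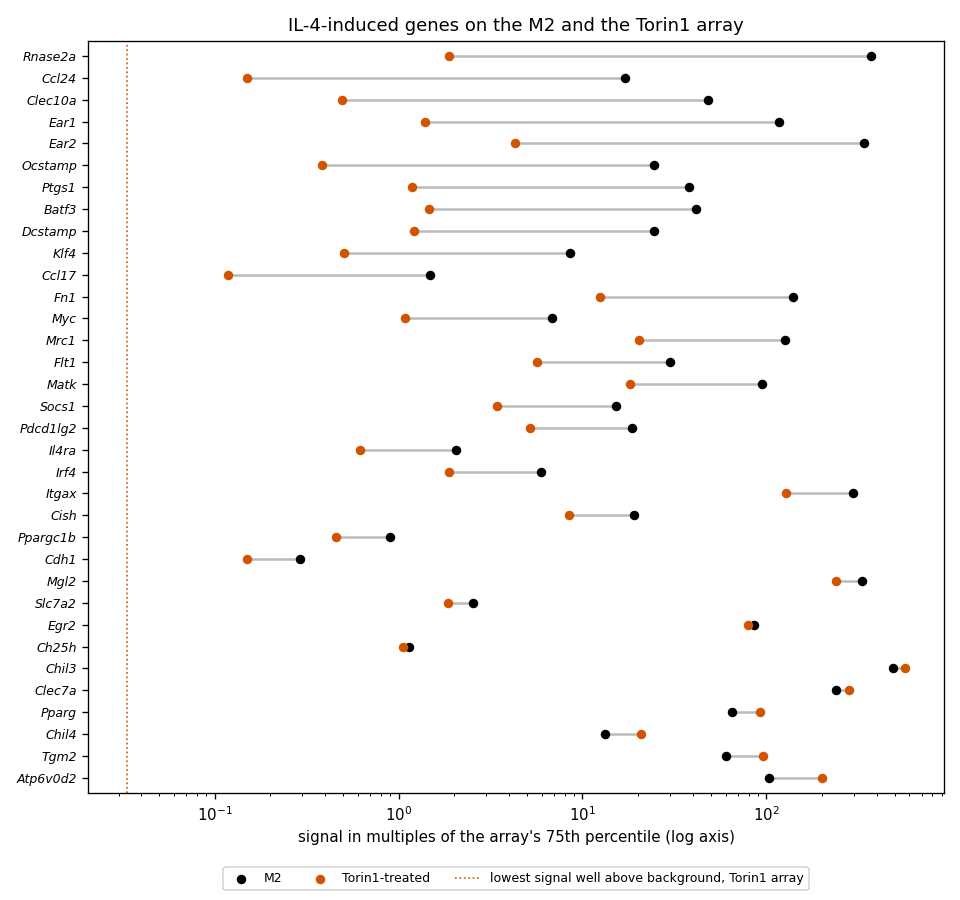
Signals of 34 IL-4-induced genes that were measured on both arrays, in multiples of each array's 75th percentile on a log axis, with black points for M2 and orange points for Torin1-treated BMDMs. The dotted line marks the dimmest signal called well above background on the Torin1 array, and the line of Rnase2a spans a log2 ratio of −7.61, whereas the points of Chil3 and Egr2 nearly coincide.

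Inflammatory genes moved apart from each other. Of 30 measured, 9 were higher and 4 lower, with a median log2 ratio of 0.11, which was −0.14 with the shift to the median. Nos2, the inducible nitric oxide synthase, had a signal of 228 in M2, 7739 after Torin1 and 9999 in Lamtor1-deficient BMDMs, beside 166513 in M1 BMDMs. Clec4e, a receptor for fungal and mycobacterial glycolipids, had a log2 ratio of 5.01, the chemokine Ccl5 2.87, the prostaglandin synthase Ptgs2 2.70 and Acod1, which makes itaconate, 2.43. The monocyte chemokines Ccl2 (−1.69) and Ccl7 (−1.35) were lower. Tnf had a ratio of −0.60, and the probe of Il12b was detected on neither array. Il1b, with signals of 40.4 and 4.88, was at least 2.03-fold lower, and Il1a, with 5.31 and 48.9, was at least 2.86-fold higher. Cxcl10, a chemokine induced by interferon, had 218 and 10.9 and was at least 10.9-fold lower. With normexp, Ptgs2 had 2.03.

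Genes by which macrophages are recognised did not move as 1 group. Csf1r, the M-CSF receptor (−0.27), Itgam (0.15), Cd68 (0.70), Tyrobp (0.08) and Lyz2 (0.12) stayed within 2-fold by their brightest probe, and their signals in Torin1-treated BMDMs were between 7272 (Itgam) and 204565 (Tyrobp). The lowest of 3 measured probes gave −2.14 for Csf1r and −2.81 for Itgam, so that the probes of these genes disagree. Adgre1, which encodes F4/80, had a ratio of −2.81 and the high-affinity Fc receptor Fcgr1 −4.61. Aif1, an actin-binding protein of macrophages, went from 39320 to 344 (−6.50). In this list 10 of 31 genes were lower and 3 higher, and Cd33 (3.81) had the largest rise. With normexp, Fcgr1 had −3.87.

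Complement genes had a median of −1.85, with 11 of 17 measured genes lower and 1 higher. The 3 chains of C1q, which starts the classical pathway, had ratios of −7.08 (C1qa), −5.14 (C1qb) and −5.42 (C1qc). Their signals of 110421, 195562 and 203674 in M2 went to 643, 4397 and 3756. Cfp (−4.18), a regulator of the alternative pathway, and the anaphylatoxin receptors C5ar1 (−2.90) and C3ar1 (−2.31) were lower as well. C3 stayed within 2-fold at −0.17. Cfb, the serine protease of the alternative pathway, was the member that was higher, with 2.02 after Torin1 and −3.84 after Lamtor1 loss.

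Genes of MHC class II presentation had the lowest median of the 40 pathway lists, −2.71, with 8 of 11 measured genes lower. The chaperone genes H2-DMa (−4.38) and H2-DMb1 (−3.79), the chain genes H2-Aa (−3.61), H2-Eb1 (−2.74) and H2-Ab1 (−2.24), the invariant chain Cd74 (−2.90) and the transactivator Ciita (−2.71) were all in this group. H2-Oa (2.69) and H2-Ob (2.87), which encode the inhibitor of H2-DM, were higher. Genes of MHC class I presentation lay on the other side, with a median of 0.59. Of 19 genes 3 (15.8%) were higher and 1 (5.26%) lower, beside 11.2% and 13.4% of all genes. Tapbpl, a peptide editor (1.70), and the peptide transporter Tap2 (1.45) were higher, and the light chain B2m had 0.52. With normexp, Ciita had −1.68, H2-Oa 1.87 and H2-Ob 1.62.

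**Figure D3:**
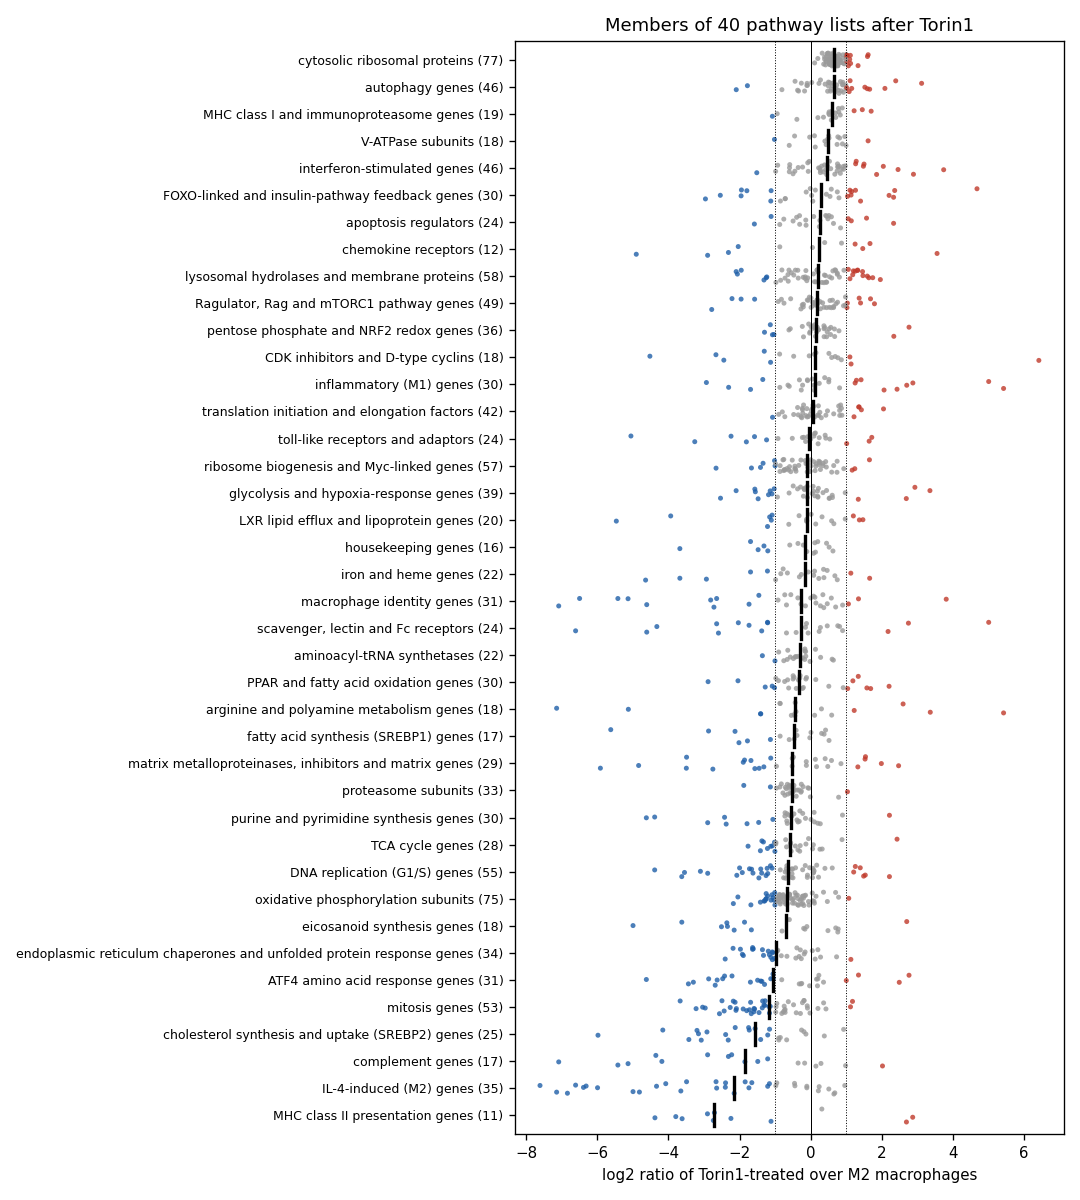
Log2 ratios of Torin1-treated over M2 BMDMs for the measured members of 40 pathway lists, ordered by their median (black bar), with the number of genes in brackets. Points are red at 2-fold or more higher and blue at 2-fold or more lower, and the dotted lines mark 2-fold; MHC class II, IL-4-induced and complement genes have the lowest medians (−2.71, −2.15 and −1.85) and ribosomal proteins the highest (0.65).

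Cholesterol synthesis and uptake genes, which SREBP2 controls, had a median of −1.56 after Torin1 and 0.57 after Lamtor1 loss. Of 25 measured genes 16 were lower after Torin1 and 0 higher, and 14 of the 16 were within 2-fold on the Lamtor1-deficient array, as were 58.8% of all genes lower after Torin1. Steps along the whole pathway were represented, from Hmgcs1 (−1.73) through Mvk (−1.16, with −0.69 by another probe), Idi1 (−4.16) and Fdps (−2.12) to Sqle (−3.20), Cyp51 (−3.15), Msmo1 (−2.32) and Hsd17b7 (−3.43). The sterol carrier Stard4 (−3.08) was lower too. Fdft1 (−0.19), Lss (−0.26) and Dhcr7 (−0.13) stayed within 2-fold. With normexp, the ratio of Hsd17b7, whose signal after Torin1 was 24.5, was −1.77, and that of Cyp51 was −2.24.

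The transcript of Srebf2 itself had a ratio of 0.93 by its brightest probe and −0.10 by the other. The RefSeq promoter table (GRCm38.p6) held a window of 250 bases before to 50 bases after the start for 18 of the list's genes. The letters CCAAT, the site of NF-Y, stood on either strand of 17 of the 18 windows (94.4%) and in 41.1% of all promoters. The letters TCACNCCAC, a form of the sterol response element, stood in 1 of the 18 (5.56%) and in 1.44% of all. That gene was Hmgcs1, whose window is shown because it holds this element upstream of the start (chr13:119690194-119690242, + strand, with the element in capitals).
Hmgcs1: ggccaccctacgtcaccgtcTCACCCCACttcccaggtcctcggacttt

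Fatty acid synthesis genes had 6 of 17 lower and 0 higher, with a median of −0.46. The desaturases Scd2 and Scd1, the elongase Elovl6 (−2.87) and the acyl-CoA synthetase Acsl3 (−2.13) were among them. Scd2 had signals of 4882 (M2), 24965 (Lamtor1-deficient) and 78.4 (Torin1), which are log2 ratios of 2.50 and −5.62. Scd1, a close relative of Scd2, had signals of 125 (M2), 2284 (Lamtor1-deficient) and 24.4 (Torin1), and a probe of one may also read the other. Fasn had −0.60 and Acly −0.86. The LXR-linked genes had a median of −0.11 (−0.36 with the shift to the median), with 6 of 20 lower and 3 higher. Lpl (−5.46), the phospholipid transfer protein Pltp (−3.94) and Abca1 (−1.08) were among the lower ones. Npc2 (1.47) and, by the brighter of 2 probes, Rxra (1.37 and 0.24) were higher, and Apoe had 0.32 at signals of 391900 and 386450. Genes of PPAR signalling and fatty acid oxidation had a median of −0.32, with 6 of 30 higher and 5 lower, or 4 and 7 with the shift to the median. With the 75th percentile taken over probes detected on all arrays, 3 were lower. The lipid droplet coat protein Plin2 (1.69) and the fatty acid carriers Fabp4 (1.58) and Fabp5 (1.34) were higher, and the mitochondrial uncoupling protein Ucp2 (−2.88), the peroxisomal enzyme Ehhadh (−2.04) and Acaa2 (−1.28), the thiolase of β-oxidation, were lower. With normexp, Scd2 had −4.78 after Torin1, Scd1 −0.88 in place of −2.02, Elovl6 −1.67, Acsl3 −1.36 and Ehhadh −1.11.

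The genes of the amino acid response that ATF4 drives had a median of −1.06 after Torin1 (−0.88 with normexp background correction) and 0.65 after Lamtor1 loss, with 17 of 31 lower and 4 higher. The serine and one-carbon enzymes Mthfd2 (−4.62), Psat1 (−3.44), Phgdh (−2.42) and Psph (−1.37), the proline enzymes Pycr1 (−3.30) and Aldh18a1 (−2.68) and the asparagine synthetase Asns (−2.47) were lower. Mthfd2, which serves mitochondrial one-carbon metabolism, had signals of 848 (M2), 2179 (Lamtor1-deficient) and 27.2 (Torin1). Chac1, which degrades glutathione, had −1.69 after Torin1 and 2.56 after Lamtor1 loss. Atf4 itself had −0.03 at signals of 67669 and 52349. Slc7a11, the cystine transporter, went the other way with 2.76, as did Ppp1r15a (2.49), the phosphatase subunit that reverses eIF2α phosphorylation. Of the aminoacyl-tRNA synthetases, only Aars (−1.36) was lower under every scaling and with normexp, and the median of the 22 was −0.30. Tars lay at the threshold, and with the shift to the median 4 were lower. With normexp, Mthfd2 had −2.86, Pycr1 −1.76, Aldh18a1 −1.27 and Chac1 −0.88, which is within 2-fold.

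The letters TGATGNAA, the core of the C/EBP-ATF response element, stood on either strand in 11 of 30 promoter windows of the ATF4 list (36.7%) and in 4.51% of all promoters. They were in 7 of the 17 lower members and in 1 of the 4 higher ones. The windows below hold a match, in capitals, in 3 members that were lower after Torin1 (Chac1 not with normexp) and in Slc7a11, which was higher and holds another match in lower case. The positions are chr6:7693210-7693252 (Asns, − strand), chr2:119351029-119351076 (Chac1, + strand), chr11:120643824-120643871 (Pycr1, − strand) and chr3:50443633-50443680 (Slc7a11, − strand) of GRCm38.p6.
Asns: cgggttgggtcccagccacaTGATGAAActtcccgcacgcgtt
Chac1: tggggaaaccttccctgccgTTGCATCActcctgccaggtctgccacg
Pycr1: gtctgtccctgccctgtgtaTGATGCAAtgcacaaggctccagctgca
Slc7a11: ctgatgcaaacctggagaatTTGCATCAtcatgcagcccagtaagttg

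Chaperones and enzymes of the endoplasmic reticulum, where secreted and membrane proteins fold, were lower in 17 of 34 genes and higher in 1, with a median of −0.98 after Torin1 and 0.24 after Lamtor1 loss. Of the 17, 16 were within 2-fold on the Lamtor1-deficient array, beside the 58.8% of all lower genes. Pdia4 (−2.40), Sdf2l1 (−2.18), Dnajb11 (−1.98), Dnajc3 (−1.92) and Manf (−1.89) had the lowest ratios. Hspa5, which encodes the chaperone BiP, had signals of 120518 (M2), 117415 (Lamtor1-deficient) and 41700 (Torin1). The transcription factor Xbp1 had −1.01, whereas Ddit3 (CHOP) had 0.20 and Ern1, the sensor IRE1α, was higher at 1.13. With the shift to the median 20 of the 34 were lower and 0 higher.

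Nuclear-encoded subunits of oxidative phosphorylation were shifted down together by less than 2-fold in most cases. Of 75 genes 65 had a ratio below 0 and 16 were 2-fold or more lower, with a median of −0.67. The median after Lamtor1 loss was 0.29, where 0 of the 75 changed 2-fold. By complex, the medians after Torin1 were −0.59 for the 36 genes of complex I, −0.84 for 4 of complex II, −0.71 for 9 of complex III, −0.48 for 10 of complex IV and −0.77 for 15 of complex V. Ndufs8 (−2.17) and cytochrome c itself, Cycs (−2.05), had the lowest ratios in the list. The muscle isoform Cox6a2 of complex IV, which is not in the list, had −4.07 with signals of 719 and 33.9, and −2.60 with normexp. When arrays were shifted to their medians, 32 of the 75 were 2-fold or more lower. TCA cycle genes had a median of −0.57 with 9 of 28 lower, among them Idh3a (−1.76), Fh1 (−1.33), Mdh1 (−1.12) and Cs (−1.02), and Acod1 was the member that was higher. Proteasome subunits had a median of −0.53, with 31 of 33 below 0 and 2 of them 2-fold or more lower, or 6 with the shift to the median.

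Ribosomal proteins, whose messages mTORC1 controls at the level of translation, lay above 0 in all 77 measured genes, from 0.11 (Rpl21) to 1.62 (Rpl5), and 11 (14.3%) were 2-fold or more higher, beside 11.2% of all genes. Their median was 0.65 after Torin1 and 0.33 after Lamtor1 loss. With quantile normalization the median was 0.17 and 2 genes were 2-fold or more higher, with the shift to the median it was 0.40 and 3 genes were, and not all members then lay above 0. These are among the brightest probes of the array, many of which may also read pseudogenes. Rpl27a had 3 probes with ratios between −0.20 and 1.00. Of the translation factors, Eif4b (2.05), Eif3f (1.43), Eif4a2 (1.36), Eef2 (1.35) and Eif3h (1.22) were higher and Eif5a (−1.07) was lower. Over the scalings and normexp, Eef2 was as low as 0.97, Eif3h as low as 0.85 and Eif5a as high as −0.99, which are within 2-fold. Myc (−2.66) and the ribosome assembly factors Bop1 (−1.67) and Nop56 (−1.34) were lower, but their list of 57 genes had a median of −0.09. In it 6 genes (10.5%) were lower, beside 13.4% of all genes, or 12 with the shift to the median.

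Autophagy genes had a median of 0.65, with 10 of 46 higher and 2 lower. With the shift to the median 6 of the 46 were higher. Optn, a receptor for ubiquitinated cargo, had 3.12, Tecpr1, which acts in autophagosome maturation, 2.39, and the ubiquitin-like proteins Map1lc3a 2.09, Atg12 1.59 and Gabarapl1 1.52. Map1lc3b (0.86), Sqstm1 (0.79) and Ulk1 (0.92) stayed within 2-fold. Lysosomal genes moved both ways, with 13 of 58 higher and 6 lower. Their median of 0.20 became −0.05 with the shift to the median. The cation channel Mcoln1 (1.63) and the cathepsin Ctsk (1.59) were higher, and cathepsin C (Ctsc, −2.10) and the glycosaminoglycan-degrading sulfatases Arsb (−2.06) and Ids (−1.95) were lower, of which Arsb, with a signal of 22.4 after Torin1, had −0.76 with normexp background correction. Ctsa (1.96) and Gaa (1.74) rest on the brighter of 2 probes, since the other probe gave −0.31 and 0.37, respectively.

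V-ATPase subunits had a median of 0.49, with Atp6v1c1 (1.61) higher among 18. Atp6v0a2 (−1.02) lay at the threshold. With the 75th percentile taken over probes detected on all arrays, 3 of the 18 were higher and 0 lower. In the mTOR pathway itself, 6 of 49 genes (12.2%) were higher and 4 (8.16%) lower, beside 11.2% and 13.4% of all genes. With normexp background correction, 3 of the 49 were higher. Rictor, a subunit of mTORC2, had 1.40 after Torin1 and −0.09 after Lamtor1 loss. Sgk1, a kinase downstream of mTORC2, had 1.79 and 2.00, and Fnip2, a partner of folliculin, 1.68 and 2.07. Prr5l (−2.78), Ddit4 (−2.21) and Sesn1 (−1.96) were lower. Mtor had 0.54. Lamtor1 had 0.18 after Torin1 and −5.42 on the Lamtor1-deficient array, as its label states.

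Among cell cycle genes, the mitosis list had the lowest median. Of 53 measured mitosis genes 29 were 2-fold or more lower and 2 higher, with a median of −1.17 (−0.76 and 21 lower with normexp background correction), and 7 others were above background on the M2 array only. The cyclins Ccna2 (signals of 910 and 56.5, log2 ratio −3.67) and Ccnb2 (−3.22), the cohesion factor Cdca5 (−2.97) and the kinetochore gene Nuf2 (−2.56) had low ratios, and Pbk, a mitotic kinase, was at least 12.3-fold lower. Pttg1 (1.18) and Cdc25b (1.12) were higher, but with the shift to the median 0 of the 53 were higher and 34 were lower. Among 55 genes of DNA replication 19 were lower and 6 higher, with a median of −0.63. Thymidine kinase Tk1 (−4.39), the ribonucleotide reductase subunit Rrm2 (−2.90) and Uhrf1 (−3.55) were lower, and the dUTPase Dut (2.21), Rfc2 (1.54) and the licensing factor Cdt1 (1.49) were higher. The replicative helicase genes Mcm2 to Mcm7 ranged from −0.85 to −0.50 and stayed within 2-fold. CDK inhibitors and D-type cyclins had a median of 0.13, with 5 of 18 lower and 3 higher. With the shift to the median the list had a median of −0.12, with 6 lower and 1 higher. All 3 D-type cyclins were lower, Ccnd1 at −4.52, Ccnd3 at −2.66 and Ccnd2 at −2.44. The inhibitors Cdkn1c, with signals of 521 and 35122 and a log2 ratio of 6.42, and Cdkn1b (1.14) were higher. The ratio of Cdkn1b was as low as 0.89 over the scalings and normexp. With normexp, Ccna2 had −2.75, Ccnb2 −2.49, Nuf2 −1.29, Tk1 −3.62 and Ccnd2 −1.75.

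The letters TTTNGCGC, an E2F site, stood in 12 of 46 promoter windows of the replication list (26.1%) and in 1.57% of all promoters, and in 3 of its 13 lower and 2 of its 5 higher members with a window. The window of Uhrf1 is given as the match in the lowest of these (chr17:56304108-56304155, + strand, GRCm38.p6, site in capitals).
Uhrf1: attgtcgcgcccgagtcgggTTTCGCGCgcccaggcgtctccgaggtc

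Interferon-stimulated genes were higher in 9 of 46 and lower in 1 (Samhd1, −1.52 by its brighter probe and −0.14 by the other; 3 were lower with the shift to the median), with a median of 0.47 after Torin1 and −0.55 after Lamtor1 loss. Rsad2, the antiviral enzyme viperin, had signals of 861 in M2, 9088 after Torin1 and a log2 ratio of 3.74. The RNA-binding Ifit2 (2.89), Ifit3 (2.46) and Ifit1 (2.04) and the synthetase Oas3 (1.85) followed. Oas3 had −1.97 and Ifit3 −1.41 after Lamtor1 loss. Isg15 (0.28) and Stat2 (−0.60) stayed within 2-fold, as did Mx1 (−0.93), which had −3.37 after Lamtor1 loss. The letters GAAANNGAA, part of the interferon response element, stood in 22 of 36 promoter windows of the list (61.1%) and in 9.76% of all promoters, and in 6 of the 8 higher members with a window. A match in the member with the largest ratio and in a pair that passed 2-fold in opposite directions is in capitals below, read on the gene's strand, at chr12:26456543-26456591 (Rsad2, − strand), chr19:34583407-34583455 (Ifit3, + strand) and chr5:120777700-120777748 (Oas3, − strand) of GRCm38.p6.
Rsad2: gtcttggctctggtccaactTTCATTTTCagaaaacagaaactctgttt
Ifit3: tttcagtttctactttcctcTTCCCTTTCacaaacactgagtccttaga
Oas3: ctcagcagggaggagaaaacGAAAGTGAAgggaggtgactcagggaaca

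Over all measured genes with a promoter window, this element stood in 9.54% of higher, 8.65% of lower and 8.82% of unchanged genes, and the C/EBP-ATF element in 3.69%, 3.49% and 2.77%. The letters TCACGTGA of the lysosomal CLEAR element stood in 2.32% of higher, 1.02% of lower and 2.17% of unchanged genes. Within the lysosomal list they stood in 7 of 47 windows (14.9%), in 4 of the 10 higher members with a window and in 0 of the 6 lower ones, against 1.13% of all promoters.

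Genes of the FOXO and insulin pathways were higher in 10 of 30 and lower in 7, and 8 of the 10 were within 2-fold on the Lamtor1-deficient array, as were 62.2% of all genes higher after Torin1. With the shift to the median 6 were higher. The ubiquitin ligase Fbxo32 had 4.68 after Torin1 and 3.41 after Lamtor1 loss, and the kinase Pdk4, which restrains pyruvate dehydrogenase, had 2.20 and 0.36. Foxo1 had 1.04 (0.69 by another probe) and 0.12, Irs2, an adaptor of the insulin receptor, 1.15 and −0.10, and Bbc3, the pro-apoptotic PUMA, 2.33 and 0.92. Klf2 (−2.54) and Tbc1d4 (−2.96) were lower. With normexp, Pdk4 had 1.59 and Tbc1d4 −2.25.

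In glycolysis, 9 of 39 genes were lower and 4 higher. Pdk1 (−2.54) and Ldha (−1.19) were lower, and the isoform Eno2 (3.35) and the hypoxia-response genes Ndrg1 (2.93) and Vegfa (2.69) were higher. Pgk1 and Gapdh, which are in this list, were read by probes that the array annotation places on chromosomes 3 and 7, whereas RefSeq has the genes on X and 6. In iron metabolism the transferrin receptor Tfrc (−3.68), its partner Hfe (−4.64) and the siderophore-binding Lcn2 (−2.93) were lower, and the iron exporter Slc40a1 (1.66) was higher.

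Eicosanoid genes had 8 of 18 lower and 1 higher. The constitutive cyclooxygenase Ptgs1 (−5.00), the lipoxygenase Alox5 (−2.36), its activating protein Alox5ap (−3.62) and the thromboxane synthase Tbxas1 (−2.15) were lower, while the inducible Ptgs2 was the member that was higher. Matrix genes had 12 of 29 lower and 5 higher. Fibronectin (Fn1, −3.49), Tgfbi (−5.91) and the protease Mmp9 (−4.84) were lower, and the collagenases Mmp8 (2.47) and Mmp13 (1.99) and the elastase Mmp12 (1.54, with 0.96 by another probe) were higher. Genes of arginine and polyamine metabolism had 4 of 18 higher and 4 lower, with a median of −0.44, and the arginine-recycling Ass1 (2.60) was among the higher ones. With normexp, Alox5 had −1.10 and Mmp9, whose signal after Torin1 was 21.2, had −2.99.

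The pathway lists together held 1203 of the measured genes. Outside them lay 2899 of the 3308 changed genes, and several of the largest ratios were there. Dio2, the deiodinase that activates thyroid hormone (probe at chromosome 12, 91963235 to 91963294 of mm9), had signals of 130 in M2, 86972 after Torin1 and 165869 in Lamtor1-deficient BMDMs. Gprc5b, an orphan receptor (7.15), the phosphatase Dusp13 (6.29), the inhibitory ligand Cd200 (6.05), the sulfurtransferase Tst (5.85), the cAMP-sensing Rapgef3 (5.52) and neuropeptide Y (Npy, 5.45) followed. Vnn3, a vanin, was well above background after Torin1 only, with signals of 16.7 and 4014, and was at least 235-fold higher. The lowest ratio among genes measured on both arrays belonged to the calcium-binding S100a4 (chromosome 3, 90409908 to 90409967 of mm9). It went from 201541 to 634 (−7.97) and had 44056 in Lamtor1-deficient BMDMs (−2.04). Plxdc2 (−6.79) and the carbonyl reductase Cbr2 (−6.70, with −4.55 by a second probe) were also among the 10 largest falls. Among the chemokine receptors, a list with 4 of 12 genes higher (2 with normexp) and 4 lower, Ccr2 was detected in M2 BMDMs only and, at 1342 and 3.93, was at least 67.3-fold lower. With normexp, Dio2 had 9.11 in place of 9.73, Cd200 5.29 and Cbr2 −5.54.

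Many changes after Torin1 were not accompanied by a 2-fold change after Lamtor1 loss. Both ratios have the M2 array as denominator, which ties them, so that values are set side by side only. Among the 13187 genes also well above background on the Lamtor1-deficient array, 7.73% were 2-fold or more higher there and 7.31% lower. Of the 1505 genes higher after Torin1, 936 (62.2%) were within 2-fold after Lamtor1 loss, and of the 1803 lower genes 1060 (58.8%) were. Another 44 and 45 genes, respectively, were not well above background on that array. With the shift to the median the 936 higher and 1060 lower genes became 530 and 1696.

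Within this set, Serpinb1a, an inhibitor of neutrophil serine proteases, had signals of 4198 (M2), 4256 (Lamtor1-deficient) and 36.7 (Torin1), which are log2 ratios of 0.17 and −6.50. Idi1 of cholesterol synthesis, the transcription factor Klf4 (−4.07 after Torin1), the adaptor Sla (−4.35), the anticoagulant cofactor Pros1 (−4.23), Ifitm6 (−4.81) and Col6a2 (−3.80) also had ratios after Lamtor1 loss between −0.44 and 0.49. Among rises, Tmeff1 had 4.48 after Torin1 and 0.04 after Lamtor1 loss, the snoRNA host gene Zfas1 3.83 and −0.16, and the linker histone gene H1f0 3.08 and −0.17. With normexp, Serpinb1a had −5.00, Ifitm6 −4.14, Sla −3.75, Col6a2 −2.98 and Tmeff1 3.52.

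Some genes passed 2-fold in opposite directions. Ccl17, a chemokine of M2 macrophages, had signals of 881 (M2), 4846 (Lamtor1-deficient) and 55.4 (Torin1), which are log2 ratios of 2.61 and −3.65. The fatty acid carrier Fabp7 had 3.27 after Torin1 and −3.61 after Lamtor1 loss, Mmp8 2.47 and −3.02, and Mgam 3.01 and −2.70. Scd2, Mthfd2 and Cfb, described above, belong here too, as does Scd1 except with normexp background correction, which brings its ratio after Torin1 to −0.88. With normexp, Ccl17 had −2.65 after Torin1.

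**Figure D4:**
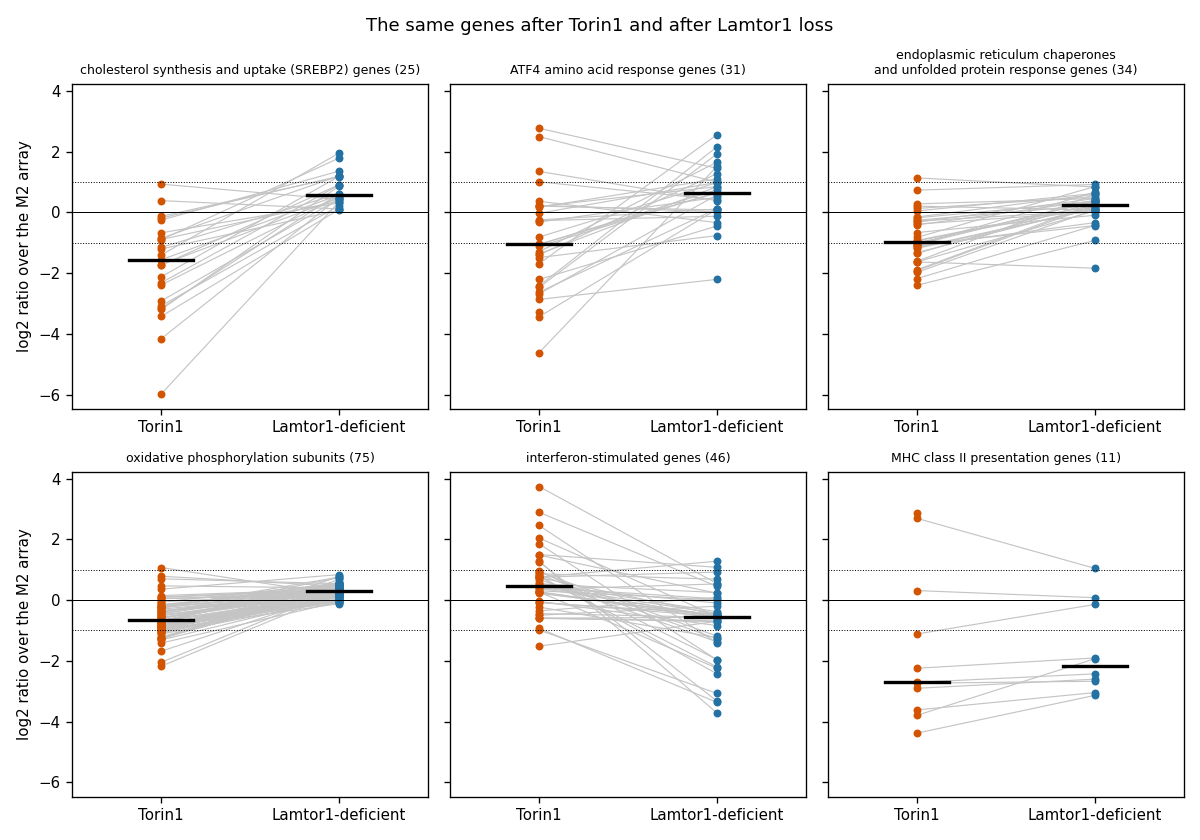
Log2 ratios of the same genes over the shared M2 array after Torin1 (orange) and in Lamtor1-deficient BMDMs (blue, where well above background), joined by grey lines, with black bars at the medians and dotted lines at 2-fold. Medians were −1.56 and 0.57 for cholesterol genes, −1.06 and 0.65 for ATF4 genes, −0.98 and 0.24 for endoplasmic reticulum genes, −0.67 and 0.29 for oxidative phosphorylation, 0.47 and −0.55 for interferon-stimulated genes and −2.71 and −2.18 for MHC class II genes.

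Markers of other cells differed between the arrays. Of 15 neutrophil markers 10 were measured on both, with 7 lower, and their summed signal, in multiples of the 75th percentile and over the brightest probe of each gene on the array, was 196 in M2 and 158 after Torin1. Csf3r alone made up 90.2 and 145 of these sums, and without it they were 106 and 12.8. Elane, which had no usable spot on the Torin1 array, enters the M2 sum only. Ltf went from 2996 to 24.6 and S100a9 from 38844 to 1127, whereas Csf3r stayed at a ratio of 0.69 and Mmp8 was higher. B cell markers summed to 159 and 48.9, with Ms4a1, Pax5 and Igll1 detected on neither array. Nearly all of the sum came from Blnk, an adaptor that macrophages can express as well, and without it the sums were 1.56 and 0.786. Of the 5 measured on both arrays 3 were lower and 0 higher, with a median of −1.61. Cd79b (−3.50) and Cd79a (−1.61) were among the lower ones. Fibroblast markers summed to 45.2 and 17.2, of which Col1a2 made up 30.9 and 11.4. The collagen genes Col3a1 (−2.89), Col1a1 (−1.86) and Col1a2 (−1.44) were lower, and the other 6 of the 9 measured markers were within 2-fold. T and NK cell markers summed to 23.2 and 8.99, although of the 6 measured on both arrays 0 were lower and 1 (Lck) was higher, with a median log2 ratio of 0.02. That median was −0.385 with outlier spots kept. Without Nkg7 the sums were 13.0 and 3.52, and they also count probes not above background on both arrays. Cd2, above background on the M2 array only, was at least 5.42-fold lower. Cd3d, Cd3g, Cd8a, Cd8b1, Ncr1 and Klrb1c were detected on neither array. Dendritic cell markers summed to 435 and 295, mainly through Itgax and Siglech, which macrophages can express too. Itgax alone made up 296 and 128 of these sums, and without it they were 139 and 167. Of the 6 dendritic cell markers measured on both arrays 3 were lower and 0 higher, with a median of −1.05. Markers of eosinophils, basophils and mast cells summed to 2.96 and 0.446 and erythroid markers to 0.494 and 0.474. The part of these cells in the results above was not tested. With normexp, Ltf had −4.79 in place of −6.59 and Col3a1 −2.21.

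Reference genes were not constant. Among 16 housekeeping genes 5 were 2-fold or more lower, including Gusb (−1.31), Hprt (−1.21) and, through the probe on another chromosome, Pgk1, while Ppia (0.08), Actb (−0.21) and Tbp (0.13) stayed within 2-fold. Among probes of lincRNA loci, 5144 (31.8% of them) were well above background on both arrays, of which 17.6% were higher and 6.82% lower. The shares were 11.2% and 13.2% for probes of RefSeq genes, and 16.9% and 8.55% for probes named by an accession or probe name. Genes in the dimmest bin of M2 signal had 19.3% and 5.90%. Whether the lincRNA shares differ from those of gene probes of equal signal was not tested. Where a changed gene had more than 1 measured probe (774 genes), all of its probes lay on the same side of 0 in 87.1% and all passed 2-fold in 58.1%.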

How the data were processed

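Total RNA of 4 BMDM cultures was labelled with Cy3 and hybridized to 1-colour Agilent 8x60K mouse arrays. The authors deposited scanner files with the intensity of each spot, as a processed signal after background subtraction and detrending by Feature Extraction (10.7.3.1 per the file headers, 10.5.1.1 per the labels), not normalized between arrays. A deposited series table of the same intensities differed by at most 0.497%. Control and outlier spots were left out (170 to 226 per array), spots of a probe averaged, and each array shifted on the log2 scale to its 75th percentile (a signal of 595 in M2, 470.0 with Torin1, 536 without Lamtor1 and 287 in M1), following the study's methods, whose raw signal threshold of 1.0 changed no value. Of 55681 probes, 51.7% were well above background for M2 and 55.4% for Torin1, from a lowest signal of 21.6 and 15.7. A value seen on 1 array only is a bound against that signal, or the probe's own if higher. The number of arrays limits the precision.

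Array names were matched to RefSeq genes (GRCm38.p6), by symbol or unique synonym, for 92.5% of 23688 symbols. Probe coordinates are those of mm9 in the array annotation. For 72 of 13448 genes the probe lay on another chromosome than the RefSeq gene, and 18 of these changed 2-fold. The text names the 10 largest rises and falls, the same among genes within 0.5 log2 after Lamtor1 loss, the 5 largest bounds and opposite pairs each way, the genes nearest the threshold, the genes the study assayed, and up to 6 members of each list with the largest ratios plus the one nearest to no change. Other members were named after their values were seen, and some genes that the rule names are not reported here. Members and the 47 gene lists were chosen with earlier results of these data known. With 1 array per condition no test was run. Alternatives were 3 other scalings, normexp with an offset of 50, outlier spots kept, no filter on dim probes, the series table, the mean over probes and a 3-fold threshold. The steps were tested on simulated data. The software was Python 3.11.15 (pandas 2.3.3, NumPy 2.4.6, matplotlib 3.10.9) and, for normexp, limma 3.58.1 under R 4.3.3.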

Additional observations from a re-analysis of the deposited data

How the results depend on the processing

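The counts of 1505 higher and 1803 lower genes stayed within 1.5 times under the 3 other scalings, normexp background correction, outlier spots kept, the series table and the mean over a gene's probes, for which they ran from 1008 to 1737 and from 1497 to 2513. Without the filter on dim probes there were 2965 higher genes, and with a 3-fold threshold 640 higher and 888 lower. Of genes within 2-fold after Lamtor1 loss, 936 higher and 1060 lower became 530 and 1696 with a shift to the median, 410 and 530 with the 3-fold threshold, and the higher ones 2011 without the filter. The cause was not tested, except that a higher threshold and a wider gene set change the counts by construction. The 257 genes past 2-fold that the naming rule chose were each read through the same probe throughout. The mean over probes was not applied to them, so disagreement between probes could not show. Of the 257, 0 changed sign under the other alternatives, but 30 were within 2-fold under at least 1. The medians of 36 of 45 lists kept their sign under every alternative that kept the filter, the mean over probes included. Of 9 lists with a median past 2-fold, 0 reversed, but 3 had a median within 2-fold with normexp background correction, which was −0.76 for mitosis genes, −0.88 for ATF4 genes and −0.70 for dendritic cell markers. No paired analysis was possible because each condition has 1 array. Genes near the lowest signal called well above background, such as Pycr1, Scd1 or Ltf after Torin1, have ratios limited by it.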
